A study of Homo sapiens with 6 samples.

Results

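Integrins are the cell surface receptors that hold cells to the matrix around them, and laminins are among the matrix proteins they hold. An integrin pairs 1 alpha with 1 beta chain. The alpha chain largely sets which ligand is bound, and the tail of the beta chain recruits the adaptors that link the receptor to actin. A laminin is a trimer of an alpha, a beta and a gamma chain that is secreted into the basement membrane, the sheet under epithelial cells such as those of the kidney tubule. Genes of both families were read from the array probe sets annotated with a single gene symbol, taken by the symbol pattern of integrin alpha chains, integrin beta chains and laminin chains. That rule used no measured value, and it gave 35 genes of 18132, with 101 of the 49395 probe sets: 18 integrin alpha, 7 integrin beta and 10 laminin genes. Each gene was read from its brightest probe set, averaged across the arrays, and its other probe sets are given beside it.

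Both groups were 786-O cells, an established line of a human clear cell renal cell carcinoma, that had received an shRNA by lentivirus. The shPLEKHO1 group (3 arrays) carried an shRNA targeting PLEKHO1, and the shNC group (3 arrays) a control shRNA. PLEKHO1, also known as CKIP-1, is an adaptor with a pleckstrin homology domain. The labels describe one cell line and do not tell whether the 3 replicates of a group came from separate cultures. The p-values therefore cover no more than array-to-array spread, which may be technical.

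Median intensity per array ranged from 55.7 to 57.1, and no array stood apart: log2 values correlated at 0.998 to 0.999 within groups and at 0.989 to 0.990 between them. The targeted gene read 110.3, 116 and 97.4 on the shPLEKHO1 arrays, against 135, 143 and 126 on the shNC arrays, so it was 19.9% lower (log2 difference of -0.32 ± 0.08 SE, limma adjusted p = 0.0123). Of 12 measured markers of renal carcinoma and tubule 10 were above the dim range defined below, among them PAX8 and EPAS1. Of these 10 markers 3 rose and 3 fell, where 55.9% of all genes above the dim range changed. Markers of cells that a pure line should lack were low. The intensities of the 6 measured leukocyte markers summed to 240 to 258 on the shPLEKHO1 arrays, against 225 to 246 on the shNC arrays. NCAM1, the 1 marker of them above the dim range, made up most of each sum, and PTPRC, which defines leukocytes, averaged 6.82 with shPLEKHO1 and 6.39 with shNC. None of the 6 endothelial and platelet markers (sums of 258 to 279 with shPLEKHO1 and 257 to 301 with shNC) or of the 4 fibroblast markers (126 to 154 and 135 to 149.8) was above the dim range, and no marker of these 3 lists passed the test.

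Differences are in log2 units of intensity + 1, shPLEKHO1 minus shNC, ± SE, with n = 3 arrays per group. "Rose", "fell" and "changed" mean an adjusted p under 0.05 in a limma fit over all 18132 genes. A gene is called dim where both group means lie below the median gene, whose intensity was 81.7. A gene with only 1 group mean below it counts as not dim, so this split is not independent of the difference tested. The shares of all genes use the same split. Apart from such splits by brightness and the marker levels above, no gene's brightness is compared with that of another. The reason is that probes differ in how they bind.

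Of the 35 genes 10 changed, where 34.1% of all genes did. The 4 that rose were the laminin chains LAMB3 and LAMB2 and the integrin chains ITGA2 and ITGA2B. The 6 that fell were ITGB5, LAMB1, ITGA1, ITGA3, ITGB8 and ITGB3. In such bulk RNA, fewer cells with a transcript and less of it per cell cannot be told apart. All these changes were modest: only LAMB3 passed 1.5-fold, as 7.26% of all genes did, and the median difference over the 35 genes was -0.01, against 0.01 over all genes. The shPLEKHO1 and shNC values did not overlap in 14 of the 35 genes, and in 45.0% of all genes. Brightness went with the share called. Among the 19 members that were not dim 8 changed, where 55.9% of such genes did, and among the 16 dim members 2 changed, where 11.2% did.

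**Figure D1:**
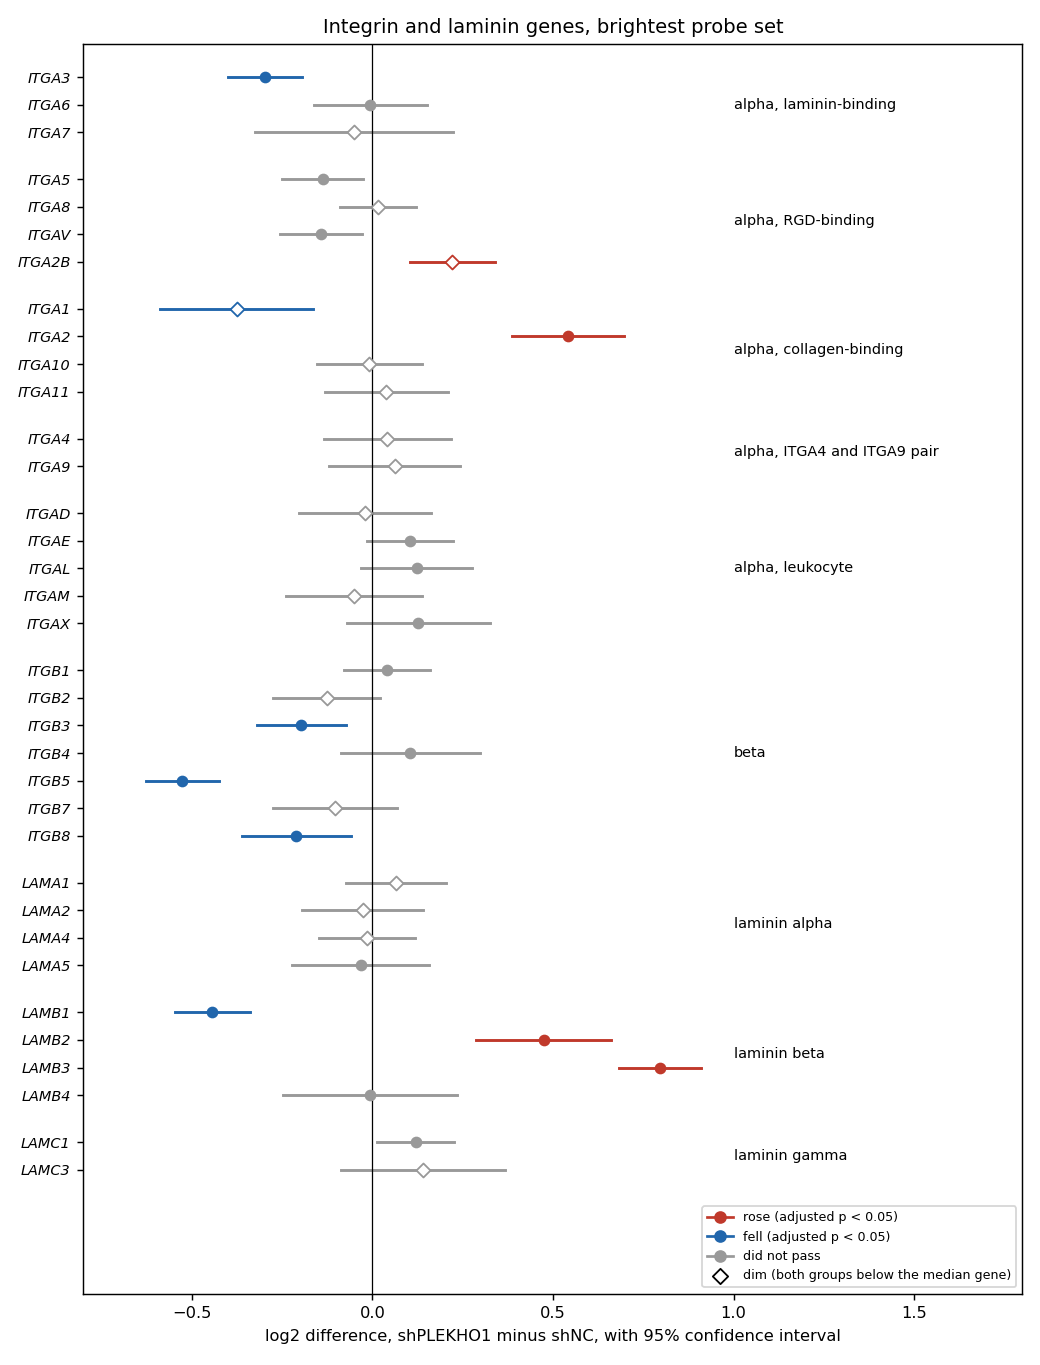
Log2 difference of each integrin and laminin gene (horizontal axis, shPLEKHO1 minus shNC, with its 95% confidence interval from limma) by chain type, with open diamonds for dim genes. The laminin beta chains spread widest, from -0.44 for LAMB1 to 0.80 for LAMB3, while the laminin alpha chains all lie within 0.07 of 0.

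The laminin beta chains held the largest changes of the laminins, and they went both ways. LAMB3 is a chain of the laminin that anchors epithelial cells. LAMB3 read 809, 861 and 813 with shPLEKHO1, against 511, 461 and 457 with shNC. Every shPLEKHO1 array was well above every shNC array, and LAMB3 was 1.74-fold higher (0.80 ± 0.05, adjusted p = 1.46e-05). Its second probe set gave the same picture, with 233, 248 and 230.5 against 152, 148 and 150.3, a difference of 0.67 ± 0.05.

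LAMB1, the beta chain of the widespread laminins of embryo and adult, moved the other way. It read 1166, 1228 and 1199 with shPLEKHO1, against 1678, 1618.5 and 1561 with shNC. The groups lay far apart, and LAMB1 was 1.36-fold lower (-0.44 ± 0.04, adjusted p = 0.000159). Its dimmer probe set was also lower on every shPLEKHO1 array but did not pass (-0.14 ± 0.05, adjusted p = 0.0684 among probe sets).

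LAMB2, the beta chain of the laminins of the kidney filter and of the neuromuscular junction, had 201, 241 and 190.1 with shPLEKHO1, against 151, 143 and 162 with shNC. The second shPLEKHO1 array was the highest, and the groups did not overlap. LAMB2 was 1.39-fold higher by its single probe set (0.47 ± 0.08, adjusted p = 0.00244). LAMB4 was the beta chain that did not pass, at -0.01 ± 0.10, with a 95% confidence interval from -0.25 to 0.23.

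The start regions of the beta chains with the largest rise and the largest fall are shown because both genes code for chains of the same kind that moved in opposite directions. Capitals mark matches of the AP-1 motif TGANTCA, which reads the same on both strands, and of the GC box GGGCGG on either strand. The windows run from 250 bases before to 50 bases after an annotated start and come from RefSeq (GRCh38.p14), at chr1:209651325-209651624, minus strand, for one of the 3 LAMB3 starts listed and at chr7:108003112-108003411, minus strand, for LAMB1.
LAMB3: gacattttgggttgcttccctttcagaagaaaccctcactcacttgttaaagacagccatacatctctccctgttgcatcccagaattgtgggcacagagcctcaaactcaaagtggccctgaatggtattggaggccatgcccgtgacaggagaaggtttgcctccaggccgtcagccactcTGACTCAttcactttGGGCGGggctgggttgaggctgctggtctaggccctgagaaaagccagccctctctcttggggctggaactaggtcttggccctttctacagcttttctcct
LAMB1: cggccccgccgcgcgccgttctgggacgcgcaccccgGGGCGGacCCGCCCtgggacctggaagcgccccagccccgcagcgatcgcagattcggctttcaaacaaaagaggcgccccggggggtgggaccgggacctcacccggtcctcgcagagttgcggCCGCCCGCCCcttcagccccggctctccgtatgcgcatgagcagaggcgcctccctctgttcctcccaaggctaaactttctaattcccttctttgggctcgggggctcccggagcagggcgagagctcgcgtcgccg
This LAMB3 window holds 1 AP-1 match and 1 GC box, and the LAMB1 window holds no AP-1 match and 4 GC boxes, of which a pair overlaps. The other 2 LAMB3 windows hold no AP-1 match and 1 GC box each, so like LAMB1 they lack TGANTCA. Of all 35116 RefSeq windows of this length 7.71% hold TGANTCA and 45.0% hold GGGCGG. RefSeq windows, 31 in all, were at hand for 24 of the 35 genes, and TGANTCA was found in those of 2, LAMB3 and ITGA5. A gene counts here if any of its windows matches, so this count and the share of windows differ in unit. These matches describe the letters only and say nothing of what binds there.

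No laminin alpha chain passed. LAMA1, LAMA2 and LAMA4 were dim, with mean intensities of 10.2, 21.7 and 46.3 with shPLEKHO1 and 9.63, 22.1 and 47.1 with shNC. LAMA5, the alpha chain of the main laminin of adult epithelial basement membranes, was above the dim range at 145, 139 and 127 against 127, 149 and 147, groups that overlap (-0.03 ± 0.08, 95% confidence interval from -0.22 to 0.16). LAMC3 was dim and did not pass (0.14 ± 0.10).

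LAMC1, the gamma chain of most laminins, depended on the probe set read. The brightest of its 5 probe sets had 1759, 1739 and 1820 with shPLEKHO1, against 1689, 1577 and 1568 with shNC. Those groups did not overlap, but the difference of 0.12 ± 0.05 did not pass (adjusted p = 0.0828). The other 4 probe sets all rose, by 0.28 to 0.77. The second brightest had 1466, 1542 and 1426 against 884, 842 and 844, a difference of 0.77 ± 0.05 (adjusted p = 1.25e-05 among probe sets). With the mean of all 5 probe sets LAMC1 rose by 0.44 (adjusted p = 0.000258).

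**Figure D2:**
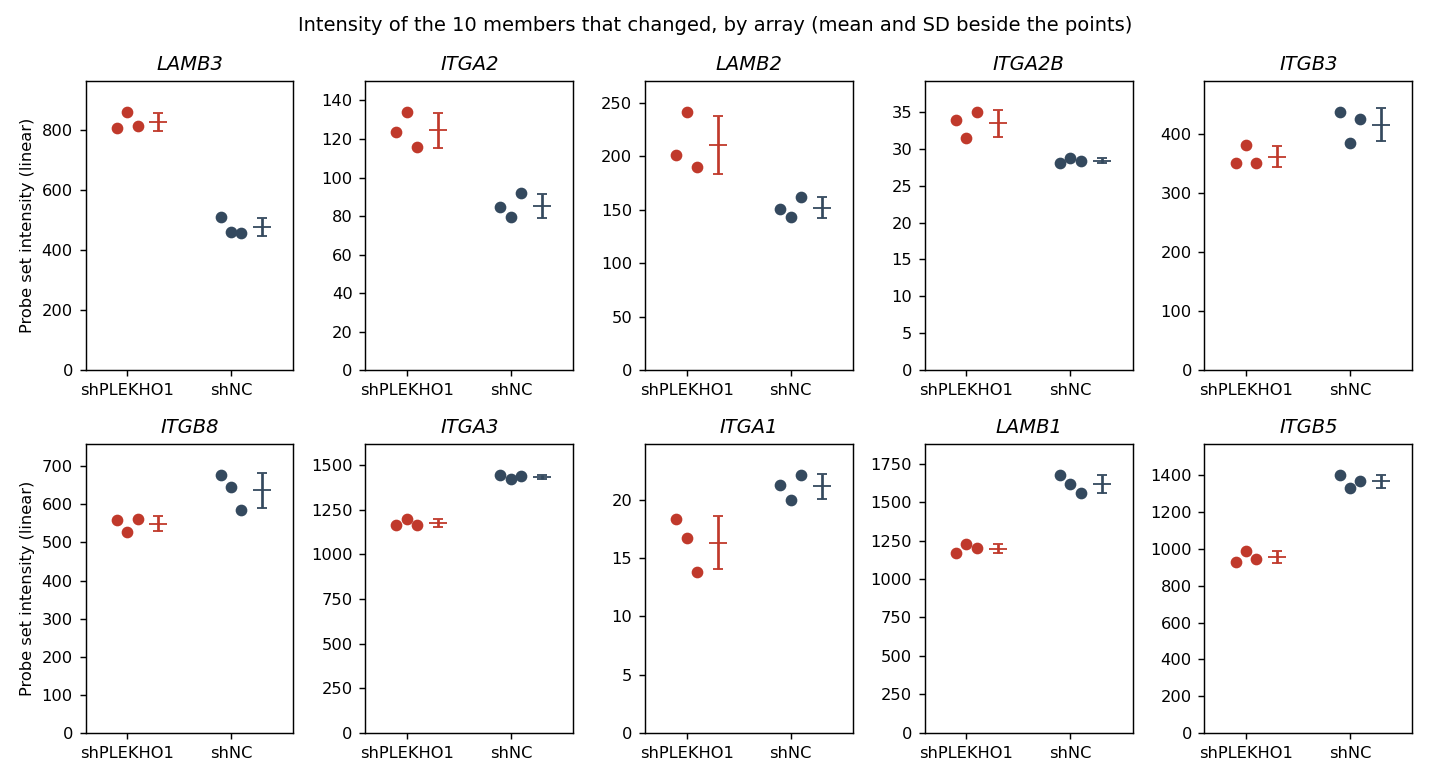
Deposited intensity (linear axis from 0) of the 10 genes that changed, for each of the 3 shPLEKHO1 (red) and 3 shNC (dark blue) arrays, with the mean and SD beside the points. The panels run from LAMB3, the largest rise, to ITGB5, the largest fall, and in none of them do the groups overlap.

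Integrin beta chains that changed all fell, 3 of the 7 measured, where 34.1% of all genes changed and 16.0% fell. All 3 were among the 5 beta chains that were not dim, and 55.9% of all such genes changed. ITGB5 pairs with ITGAV to bind vitronectin, a protein of serum and matrix. It read 929, 990.1 and 948 with shPLEKHO1, against 1404, 1332 and 1371 with shNC. The groups lay far apart, and ITGB5 was 1.44-fold lower by its single probe set (-0.53 ± 0.04, adjusted p = 6.33e-05).

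ITGB3 also pairs with ITGAV, and with ITGA2B on platelets. By its brightest probe set it read 352, 382 and 352 with shPLEKHO1, against 438, 385 and 426 with shNC. The highest shPLEKHO1 array came close to the lowest shNC array, and the difference of -0.20 ± 0.05 passed narrowly (adjusted p = 0.0221). This call was lost in 7 of 15 alternatives, over which the adjusted p ranged from 0.00133 to 0.0834. Among them were 4 of the 6 fits that left out 1 array, without shPLEKHO1 replicate 1 (0.0671) or 3 (0.0737) or without shNC replicate 1 (0.0651) or 3 (0.0834).

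ITGB8, the chain with which ITGAV binds latent TGF-beta, fell by its brightest probe set, at 558, 529 and 563 with shPLEKHO1 against 678, 646 and 586 with shNC. The shNC arrays spread more than the shPLEKHO1 arrays, without overlap (-0.21 ± 0.06, adjusted p = 0.0389). The call was lost in 9 of 15 alternatives, with adjusted p from 0.00282 to 0.202. Of the fits without 1 array it was lost without shPLEKHO1 replicate 1 (0.0602), 2 (0.108) or 3 (0.0602) and without shNC replicate 1 (0.106) or 2 (0.121). A further probe set of ITGB8 rose, and the mean of its 4 probe sets was at 0.10.

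ITGB1, the beta chain shared by most receptors for collagen, laminin and fibronectin, did not pass. It read 9103, 8438 and 8942 with shPLEKHO1, against 8596, 8812 and 8673 with shNC, and the groups overlapped. The difference was 0.04 ± 0.05, with a 95% confidence interval from -0.08 to 0.16, and all 5 of its probe sets lay between -0.08 and 0.06. ITGB4, the chain of hemidesmosomes, did not pass by any of its 8 probe sets (0.11 ± 0.08 by the brightest). ITGB2 and ITGB7, chains of leukocyte integrins, were dim and did not pass, at -0.13 ± 0.06 and -0.10 ± 0.07.

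Among alpha chains that bind collagen, ITGA2 and ITGA1 went opposite ways. ITGA2 read 124, 134 and 116 with shPLEKHO1, against 84.6, 79.5 and 92.0 with shNC. Without overlap, ITGA2 was 1.45-fold higher (0.54 ± 0.07, adjusted p = 0.00049), and its second probe set rose too (0.41 ± 0.06). ITGA1 was dim, at 18.3, 16.7 and 13.9 with shPLEKHO1 against 21.3, 20.0 and 22.2 with shNC, and 1.30-fold lower by its single probe set (-0.38 ± 0.09, adjusted p = 0.0142). That call was lost without shNC replicate 3 (adjusted p = 0.0536). ITGA10 and ITGA11, the chains of cartilage and of fibroblasts, were dim and did not pass, although a dimmer probe set of ITGA10 fell (-0.34 ± 0.09).

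Of the alpha chains that bind laminin, ITGA3 fell. It read 1162, 1199 and 1164 with shPLEKHO1, against 1446, 1423 and 1436 with shNC. Arrays of a group lay close together, and ITGA3 was 1.23-fold lower (-0.30 ± 0.04, adjusted p = 0.00128). Its other 2 probe sets were at -0.12 and -0.11 and did not pass. ITGA6 had 647, 638 and 643 with shPLEKHO1, against 634, 690 and 605 with shNC. These overlap, and the difference was -0.01 ± 0.07 (95% confidence interval from -0.16 to 0.15), but the dimmest of its 3 probe sets rose (0.31 ± 0.05). ITGA7, known from muscle, was dim (-0.05 ± 0.12).

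Of the 4 alpha chains that recognise the Arg-Gly-Asp motif of fibronectin and vitronectin, 1 rose and none fell. Of all genes 18.1% rose and 16.0% fell. ITGAV, the partner of ITGB3, ITGB5 and ITGB8, read 1608, 1531 and 1539 with shPLEKHO1, against 1704, 1717 and 1695 with shNC. Each shPLEKHO1 array was below each shNC array, yet the difference of -0.14 ± 0.05 did not pass (adjusted p = 0.0593), and it passed in 3 of 15 alternatives. ITGA5, the fibronectin receptor chain, was at 240.3, 246 and 239 against 278, 274 and 256, likewise without overlap and without passing (-0.14 ± 0.05, adjusted p = 0.0642). All 4 of its probe sets were below 0, and 1 of them fell (-0.33 ± 0.08). ITGA2B, the platelet chain, was dim and 1.17-fold higher (0.22 ± 0.05, adjusted p = 0.0108) at 33.9, 31.4 and 35.0 against 28.0, 28.7 and 28.4, but its other 2 probe sets did not pass, and the call was lost with the mean of the 3 (0.08, adjusted p = 0.308). ITGA8, a kidney mesenchyme chain, was dim (0.02 ± 0.05).

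None of the 5 leukocyte alpha chains passed, where 34.1% of all genes changed. ITGAD and ITGAM were dim. ITGAE, ITGAL and ITGAX were not, at 1084 ± 34.0, 88.1 ± 3.77 and 137 ± 12.1 with shPLEKHO1 and at 999 ± 68.0, 80.9 ± 5.64 and 125 ± 9.21 with shNC (SD, n = 3). Like those read for ITGB4, CRKL, PLAUR, CD82 and TINAGL1, the probe sets read for ITGAL and ITGAX are of a type marked by the maker as open to binding related sequences. The other probe sets of ITGAL and ITGAX were dim. ITGA4 and ITGA9, which bind VCAM1 and tenascin C among others, were dim (0.04 ± 0.08 and 0.06 ± 0.08). On the same arrays 16 of 23 background probe sets, which match no transcript and grow brighter with their GC content, were higher with shPLEKHO1, with differences from -0.01 to 0.19. The largest difference was at a background probe set that read 487 with shPLEKHO1 and 426 with shNC, above the median gene. The part of this background in the values of dim or brighter genes was not tested.

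Probe sets of a gene did not always move alike. Taken one by one, 14 of the 101 probe sets rose and 10 fell, against 33.0% of all probe sets called. Of the 10 genes that changed 3 had a single probe set, and in 2 of the others, LAMB3 and ITGA2, every probe set passed in the same direction. A further 6 genes did not pass by their brightest probe set while another one did: LAMC1, ITGA6, ITGAX and LAMA4 with a rise, ITGA5 and ITGA10 with a fall. ITGB8 was the 1 gene with probe sets called both ways. To test such differences directly, the log2 ratio of each further probe set to the brightest one of its gene was compared between groups in a limma fit over all 26856 such pairs, a comparison chosen after these values were seen. It was called for 6 of 66 pairs, in ITGB3, ITGB8, LAMB1 and LAMC1, where 15.3% of all pairs were.

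**Figure D3:**
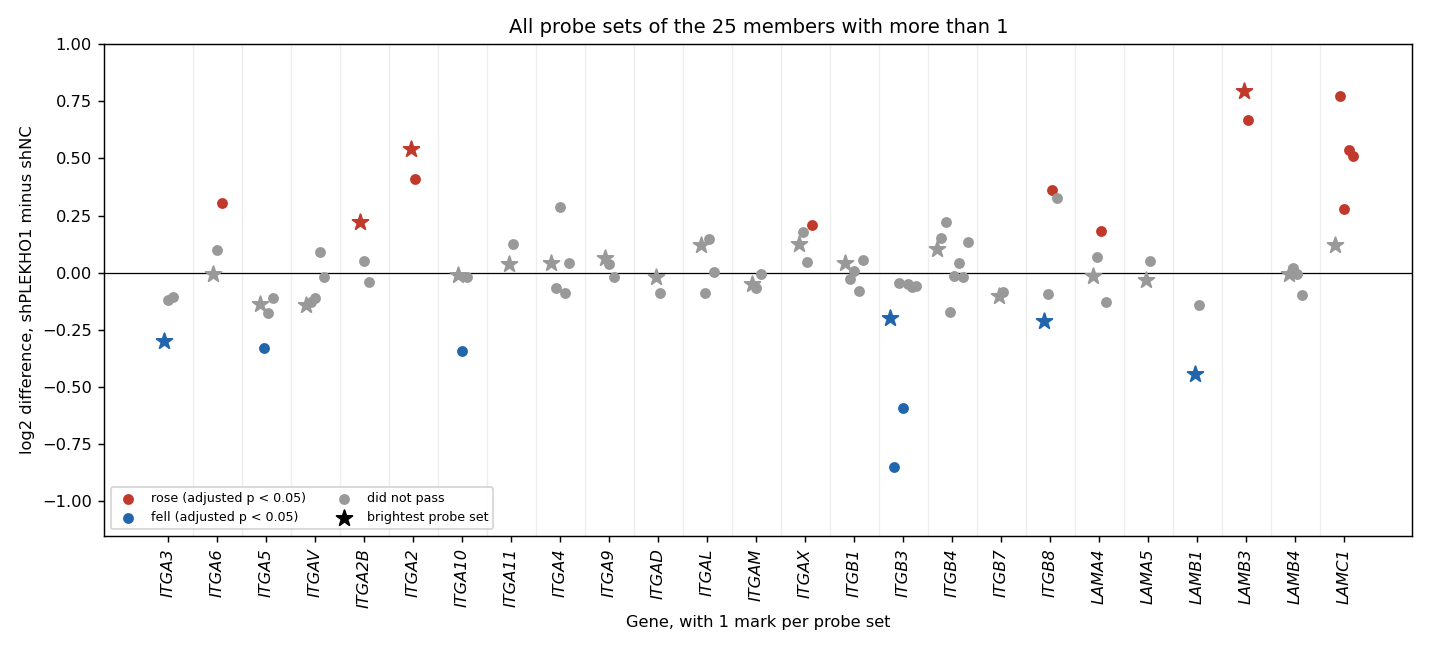
Log2 difference (vertical axis, shPLEKHO1 minus shNC) of every probe set of the 25 genes with more than 1, brightest probe set first and drawn as a star, coloured by its call among all probe sets. LAMC1 and ITGB3 have further probe sets at 0.77 and -0.85, far from their brightest ones at 0.12 and -0.20.

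ITGB3 showed the widest range. Its second brightest probe set read 169, 188 and 191 with shPLEKHO1, against 329, 326 and 339 with shNC. That is a difference of -0.85 ± 0.06, larger than that of its brightest probe set by -0.65 ± 0.08 (adjusted p = 0.00124 for the ratio). Another one fell by 0.59, while the remaining 4 lay between -0.06 and -0.05 and did not pass. ITGB8 had one probe set at 98.4, 99.1 and 103 with shPLEKHO1, against 80.1, 77.5 and 75.7 with shNC, a rise of 0.36 ± 0.05 next to the fall of the brightest one (difference between both of 0.57 ± 0.07, adjusted p = 0.00107). For LAMC1 the second brightest probe set exceeded the brightest by 0.65 ± 0.07 (adjusted p = 0.000627). For LAMB1 the dimmer probe set differed from the brighter by 0.30 ± 0.07 (adjusted p = 0.0215). Where along each transcript these probe sets lie was not analysed here.

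**Figure D4:**
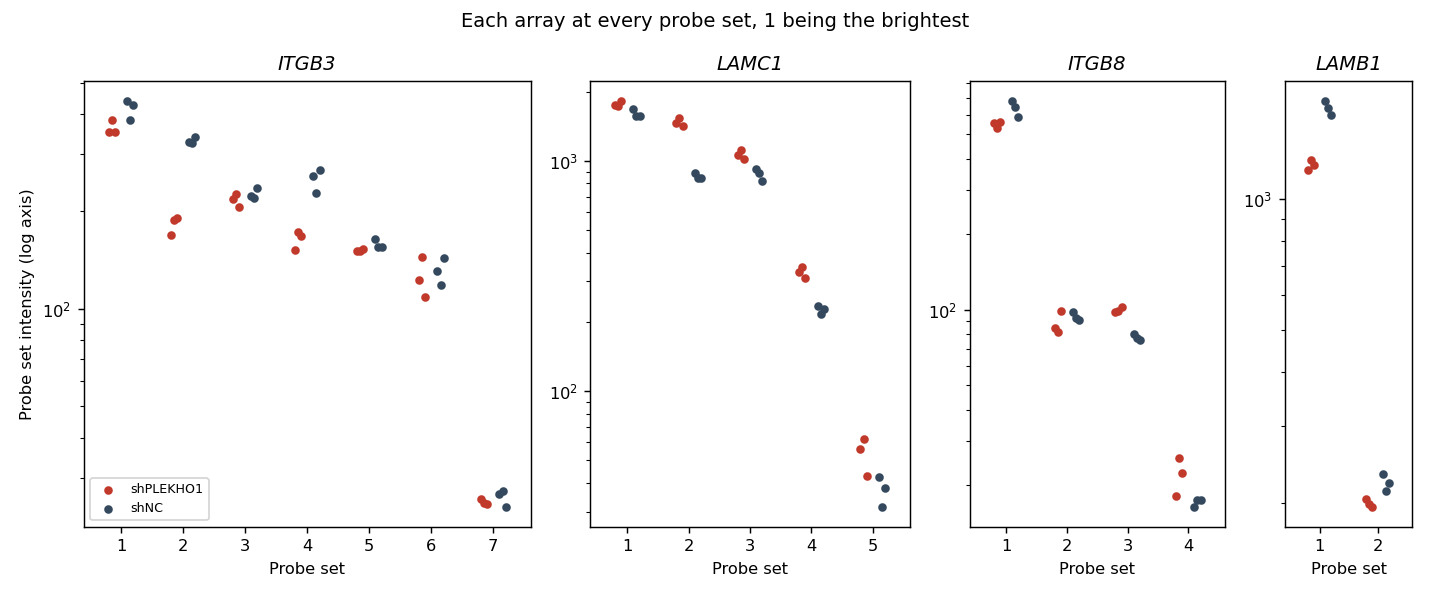
Deposited intensity (log axis) on each shPLEKHO1 (red) and shNC (dark blue) array at every probe set of the 4 genes whose probe sets moved apart, numbered from the brightest. In ITGB3 the groups separate widely at 2 probe sets and overlap at 3 of the others, and in LAMC1 they separate more widely at the second than at the first.

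Genes that work with these chains were read from 4 lists. Cytoplasmic adaptors of integrins changed in 26 of 44 measured cases, where 34.1% of all genes changed. Of the adaptors 16 rose and 10 fell, and the median difference over the 44 was 0.08. Most of them were bright: 34 were not dim, and 25 of these changed, where 55.9% of all such genes did. FERMT2, the kindlin that binds beta chain tails and activates them, was 1.75-fold higher (0.81 ± 0.05), at 1740 ± 55.5 with shPLEKHO1 and 983 ± 57.8 with shNC (SD, n = 3), and all 4 of its probe sets rose. LPXN, a relative of paxillin, rose by 0.72 ± 0.05, with 2 of its 3 probe sets up. CRKL, an adaptor that passes signals from focal adhesions to small GTPases, was 2.38-fold lower (-1.25 ± 0.05), and the tensin TNS3 1.86-fold lower (-0.89 ± 0.05). These 4 had adjusted p of at most 1.8e-05.

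Further adaptors were picked after their values were seen. The kinase-like scaffold ILK (0.67 ± 0.05), its partner LIMS1 (0.34 ± 0.07) and RSU1 (0.68 ± 0.05), which binds LIMS1, rose, whereas PARVA, another member of that complex, fell by its brightest probe set (-0.21 ± 0.07), although 2 of its other probe sets rose. Of the 3 probe sets of RSU1 2 rose. Of the links to actin, the talin TLN1 rose (0.39 ± 0.05) and vinculin, VCL, fell (-0.32 ± 0.05). That held at 1 of the 2 probe sets of TLN1 and at 2 of the 4 of VCL. Of the signalling proteins, paxillin, PXN, rose (0.18 ± 0.05) and focal adhesion kinase, PTK2, fell (-0.22 ± 0.05). That held at 9 of the 10 probe sets of PXN and at 2 of the 3 of PTK2. The kinase SRC was at 0.06 ± 0.07 and did not pass.

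Membrane proteins that bind integrins side by side changed in 13 of 19 cases, 6 up and 7 down, with a median of -0.04, where 34.1% of all genes changed. Among the 14 that were not dim 12 changed, against 55.9% of all such genes. SDC1, a heparan sulfate proteoglycan that helps integrins bind matrix, was 3.31-fold lower (-1.73 ± 0.06), at 326 ± 26.0 with shPLEKHO1 and 1077 ± 36.6 with shNC (SD, n = 3). SDC4, its relative in focal adhesions, was 1.79-fold lower (-0.84 ± 0.05). All 3 probe sets of each fell. PLAUR, the urokinase receptor, was 2.13-fold higher (1.09 ± 0.04), with all 5 probe sets up, and the tetraspanin CD82 was 1.66-fold higher (0.73 ± 0.05). The adjusted p of these 4 was at most 1.85e-05.

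Basement membrane proteins and other laminin binding proteins changed in 7 of 25 cases, 4 up and 3 down, with a median of 0.03, where 34.1% of all genes changed. Among the 14 that were not dim 6 changed, against 55.9% of all such genes. TINAGL1, a secreted protein that binds laminin and integrins, was 2.92-fold lower (-1.54 ± 0.08), at 71.9 ± 7.11 with shPLEKHO1 and 212 ± 11.5 with shNC (SD, n = 3). NID2, a nidogen that bridges laminin and collagen networks, fell too (-0.30 ± 0.04, adjusted p = 0.000938). Of the 3 probe sets of TINAGL1 2 fell, and of the 2 of NID2 1 did. SGCB, a sarcoglycan of the laminin receptor complex of dystroglycan, rose by 0.61 ± 0.05 and the laminin-related netrin NTN4 by 0.47 ± 0.09. Of the 3 probe sets of SGCB 2 rose, as did the 2 of NTN4. The log2 means of TINAGL1 with shPLEKHO1 (6.18) and of NTN4 with shNC (6.15) lay below that of the median gene (6.35). These 2 genes counted as not dim through their other group alone.

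Other ligands of integrins changed in 11 of 44 cases, 7 up and 4 down, with a median of -0.01, where 34.1% of all genes changed. Among the 21 that were not dim 10 changed, against 55.9% of all such genes. TNC, tenascin C, a ligand of ITGAV and ITGA9 integrins, was 2.97-fold higher (1.57 ± 0.05), at 1841 ± 29.8 with shPLEKHO1 and 615 ± 9.67 with shNC (SD, n = 3). SPP1, osteopontin, another ITGAV ligand, was 1.69-fold lower (-0.76 ± 0.04), and VCAM1, a ligand of ITGA4, was 1.68-fold lower (-0.75 ± 0.05). COL6A1, a chain of collagen VI, fell by 0.63 on the log2 scale, with 2 of its 6 probe sets down. Their adjusted p was at most 3.59e-05.

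**Figure D5:**
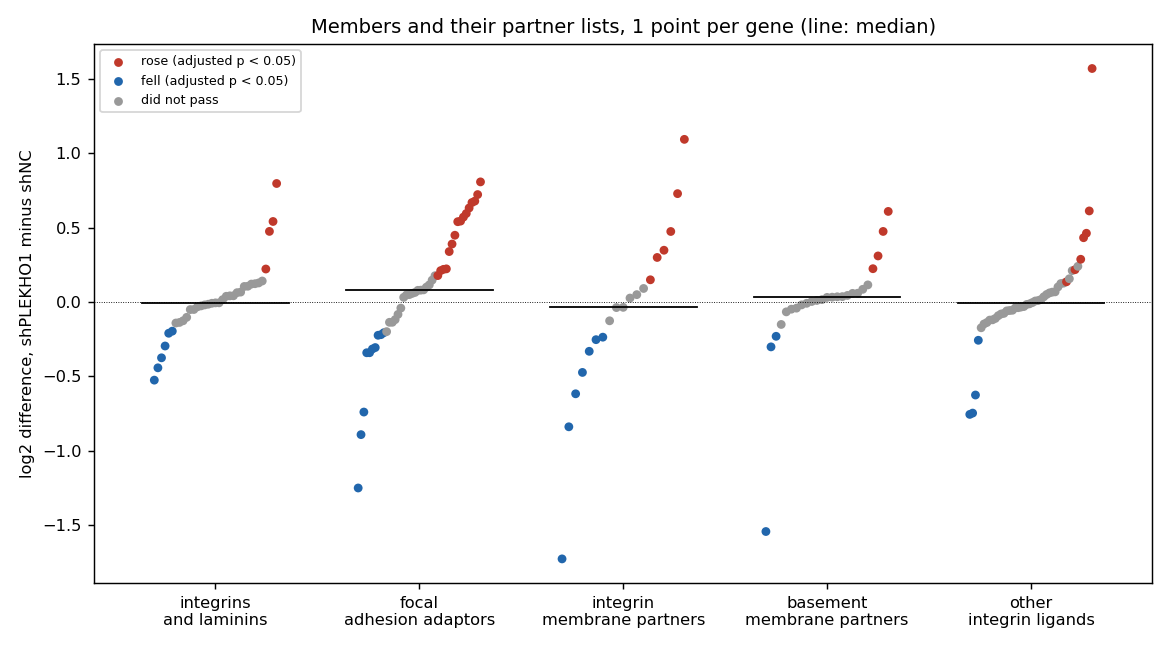
Log2 difference (vertical axis, shPLEKHO1 minus shNC) of each gene of the integrin and laminin families and of the 4 partner lists, ranked within its list, with a line at the list's median. The partner genes reach from -1.73 (SDC1) to 1.57 (TNC), while the integrins and laminins stay between -0.53 and 0.80.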

How the data were processed

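Each of the 6 RNA samples was hybridised to its own one-colour Affymetrix array. Per the submitters' processing notes the authors used Expression Console. Not given in the sources used here: its version, algorithm and normalization. Intensity values, linear and 1 per probe set and array, were what the authors deposited. Whether background remains in them, and how far it moves the differences of dim or brighter genes, was not tested. The number of arrays limits the precision.

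Of 49395 probe sets 44988 had 1 gene symbol and were no controls. Symbols were updated through Entrez identifiers (GRCh38.p14, 44961 matched). Values were taken as log2(intensity + 1), a pseudocount of 1 that also understates dim genes, quantile normalized over all probe sets and compared without covariates in limma 3.58.1 (lmFit, eBayes; R 4.3.3), with Benjamini-Hochberg adjustment over 18132 genes (44988 for probe sets) and a threshold of 0.05. For the targeted gene the exact two-sided permutation test gave p = 0.1, the smallest that 3 against 3 arrays allow. The limma fit was tested on simulated log2 values, with a far smaller share of genes changed than was called here. The choice of probe set was tested on a made-up example. The log, the normalization, the ratio fit and the motif search were not tested in this way. Alternatives varied the normalization, pseudocount, dim gene filter, probe set choice, variance model, array weights, replicate block and arrays.

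The members, lists and tests were chosen with earlier results of these data known. Named by rule were every member, PLEKHO1 and, from each partner list, up to 4 changed genes with the smallest p. Of the lists, 5 adaptors, 4 basement membrane genes and 1 other ligand are not analysed here.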

Additional observations from a re-analysis of the deposited data

How the results depend on the processing

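Results were recomputed under up to 15 alternatives (9 of the dim members had 14, since they are among the genes one of them leaves out): median centring, no normalization, no pseudocount, no dim genes (the lowest 30%), the mean of a gene's probe sets, single probe sets, array weights, a robust fit with a variance trend, a replicate block, and each array left out. Of the 10 members called, LAMB3, LAMB2, LAMB1, ITGB5, ITGA2 and ITGA3 stayed called in the same direction in all of these, as did the 16 partner genes named by rule and PLEKHO1 (adjusted p from 0.00265 to 0.0427). By the mean of all probe sets ITGA6 was called at 0.13 (adjusted p = 0.0326) and ITGB8 was at 0.10 and not called. Members called in neither setting gave the other sign in 33 of 354 values, none beyond 0.09. The cause of these changes was not tested, except that single probe sets change what is counted.

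The integrin beta count of 3 was 1 with median centring and 1 with the replicate block, and 1 to 2 without 1 array. The integrin alpha count of 4 was 7 with a variance trend. Counted as single probe sets, 14858 of 44988 changed in all, or 33.0%. Of the 101 member probe sets 24 changed, 9 of integrin alpha, 6 of integrin beta and 9 of laminin genes. In the partner lists 75 changed for adaptors, 44 for membrane partners, 14 for basement membrane partners and 37 for other ligands. Their totals are not given here, so these are no shares. A gene with several probe sets counts more than once, so none of these counts compares with those of genes. Without 1 array all genes called numbered 5255 to 5714, and laminin genes stayed at 3. No shared effect of the replicate number was visible: deviations of arrays with the same number correlated at -0.16, -0.16 and -0.05. With 3 arrays per group, each centred on its group mean, this cannot tell whether the arrays were paired by design. The labels do not tell it either. The replicate block moved no other of these counts by over 1.5 times. Of dim genes 11.2% were called, against 55.9% of the others, and the part of low signal in this was not tested.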
